A study of Homo sapiens with 45 samples.

Results

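CTCF regions of DMSO-treated HEK293T cells that carried TET1 but no MBD2 were taken from the peak lists of the 4 antibodies. A CTCF region was chosen when it overlapped a TET1 region by 1 bp or more and no MBD2 region, whether or not it had an MBD3 region. Members were thus selected on the DMSO peak calls of CTCF, TET1 and MBD2, and split on those of MBD3. The rule gave 670 of the 17440 DMSO CTCF regions, which is 3.84%. Of these 670, 296 also had an MBD3 region and 374 had TET1 as their only partner. Among the 5910 CTCF regions with TET1, 11.3% thus lacked MBD2 and 5240 had it.

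CTCF is a zinc finger protein that binds insulators and the anchors of chromatin loops, and its binding at some sites is blocked by cytosine methylation. TET1 oxidises methylated cytosine and so starts its removal. NuRD, a complex that contains either MBD2 or MBD3, joins a nucleosome remodeller to histone deacetylases. MBD2 binds methylated CpG, while mammalian MBD3 has lost most of that preference. A CTCF region with TET1 and no MBD2 is therefore one where an enzyme that removes methylation was listed and the methyl-CpG reader of NuRD was not.

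HEK293T is a human embryonic kidney cell line. Cells were kept for 72 h with 30 µM BPK25, with 0.5 mM IAA or with the solvent DMSO alone. BPK25 is a cysteine-reactive compound known to reduce NuRD proteins in cells. IAA is the plant hormone auxin, which triggers the breakdown of proteins fused to an auxin-responsive tag, and the labels name no such protein for these cells. Each treatment had 3 ChIP libraries for each of CTCF, MBD2, MBD3 and TET1 and 3 input libraries, 45 in all. The authors called peaks on the 3 replicates together, so every treatment and antibody has 1 list and no value below has a replicate error. Differences between lists or between classes of regions were therefore not tested. A control antibody was not analysed here, and lists of 1 treatment may share their inputs. Intervals are 95% intervals over regions, Wilson for shares and exact for medians, and cover counting only.

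The lists differed in length and in background. BPK25 lists held 374 to 777 regions and IAA lists 95 to 595, against 7211 to 17440 in the DMSO lists. The local background of a region, in fragments, was recovered from the authors' fold and p-value. Its lowest value in a list, the floor, stands for the background of the whole genome and grows with depth. The floor was 1.16 fragments for TET1 under BPK25, 0.256 for CTCF under BPK25 and 0.937 for CTCF under IAA. In DMSO it was 5.68 for TET1, 4.35 for CTCF, 4.72 for MBD3 and 3.77 for MBD2. Within 10% of the floor, the weakest region that the DMSO MBD2 list named held 13 fragments, at a fold of 2.73. The absence of an MBD2 region means that MBD2 was not listed at this depth, not that no MBD2 was bound.

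Members of the set stood close to the middle of the CTCF list and below the middle of the TET1 list. These values took part in the choice of the regions and are given as a description. Fold is the authors' enrichment of the pileup over the local background at the summit, a linear ratio. CTCF fold at the 670 regions had a median of 4.20 (4.09 to 4.31), with quartiles of 3.37 and 5.07 and a range of 1.17 to 8.98. CTCF regions with both TET1 and MBD2 had a median of 5.065 (5.02 to 5.12). The median region exceeded 46.2% of the DMSO CTCF list in fold, against 70.6% for regions with TET1 and MBD2. TET1 fold had a median of 3.12 (3.06 to 3.18) at the 670 regions and ranged up to 5.99, while it was 3.545 (3.51 to 3.58) at regions with TET1 and MBD2. In the TET1 list these medians stood above 38.2% and 57.25% of all TET1 regions. No member exceeded more than 98.8% of the CTCF list or 97.55% of the TET1 list.

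**Figure D1:**
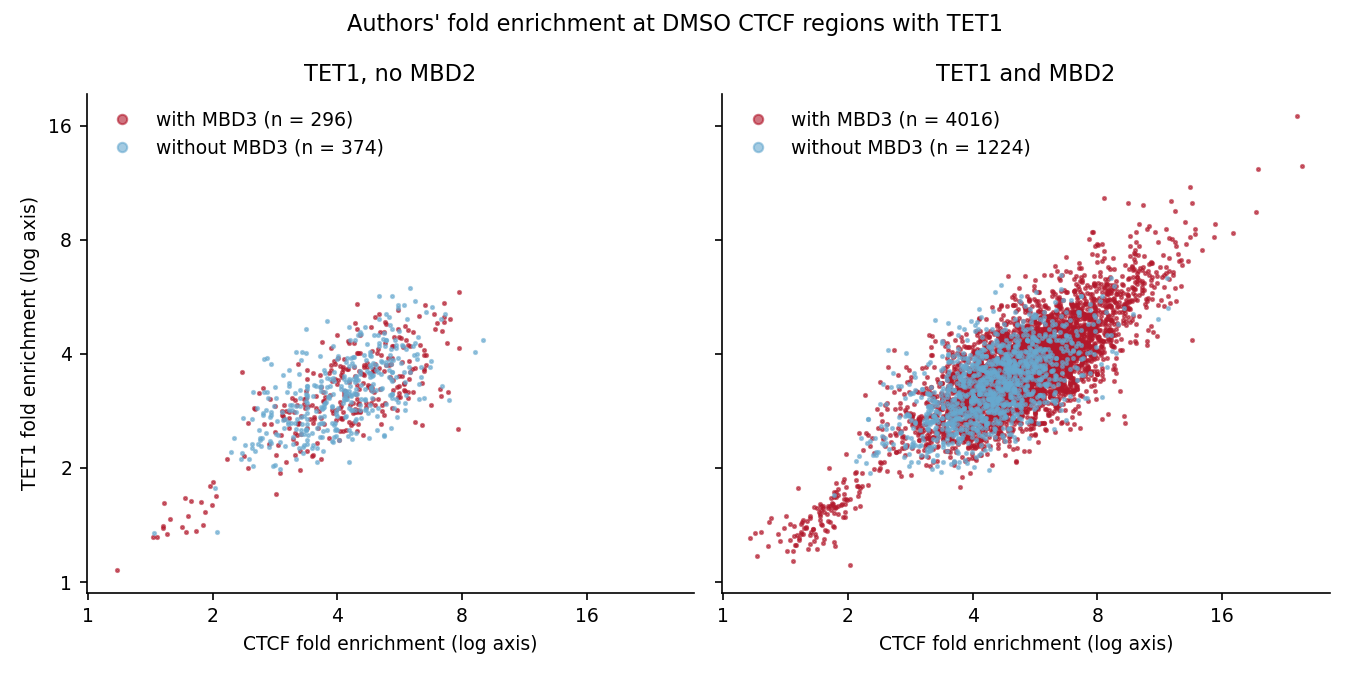
Authors' fold enrichment of CTCF (horizontal) and of the overlapping TET1 region (vertical), both on log axes, at each DMSO CTCF region with TET1; the left panel shows regions without MBD2 and the right panel those with MBD2, coloured by MBD3. Regions without MBD2 end at a CTCF fold of 8.98 and a TET1 fold of 5.99, and a small group lies near the lower left corner in both panels.

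Many TET1 regions of the set were marginal calls. A −log10 q under 5 in the TET1 list was found for 313 of 670 (46.7%, 42.97 to 50.5), where 22.2% of all CTCF regions with TET1 had one. The corresponding share of regions with TET1 and MBD2 was 19.1%. In the CTCF list, 109 of 670 (16.3%, 13.7 to 19.2) had a −log10 q under 5, close to the 14.4% of all CTCF regions. The median TET1 region of the set rested on 33 fragments, and the median CTCF region on 34. At regions with TET1 and MBD2 these medians were 43 and 48 fragments.

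The subsets with and without MBD3 had nearly the same TET1 fold. Its median was 3.125 (3.02 to 3.24) at the 296 regions with MBD3 and 3.115 (3.04 to 3.20) at the 374 regions with TET1 alone. CTCF fold was 4.29 (4.12 to 4.47) with MBD3 and 4.16 (3.945 to 4.28) without, and these intervals overlap. MBD3 was listed at 44.2% (40.5 to 47.96) of the 670 regions, close to the 46.4% of all CTCF regions. Among CTCF regions with TET1 and MBD2, MBD3 was listed at 76.6% (75.5 to 77.8). Among those with neither TET1 nor MBD2, it was listed at 18.7% (17.7 to 19.8), below the share in the set. MBD3 fold had a median of 3.67 (3.55 to 3.77) where MBD2 was not listed and 4.33 (4.30 to 4.385) where CTCF, TET1 and MBD2 were all listed.

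Among CTCF regions with TET1, the share that lacked MBD2 fell as CTCF fold grew. MBD2 was also listed more often at high CTCF fold over all CTCF regions, with or without TET1. By quartile of CTCF fold, lowest first, it was listed at 45.4%, 64.45%, 72.8% and 86.8% of them. Members numbered 201 of 4352, 163 of 4363, 167 of 4365 and 139 of 4360 CTCF regions in these quartiles. How far the fall goes beyond this general rise of MBD2 was not tested. In the lowest quartile of CTCF fold, 201 of 820 CTCF regions with TET1 lacked MBD2 (24.5%, 21.7 to 27.6). The shares were 14.55% and 11.3% in the middle quartiles, and 139 of 2495 in the highest (5.57%, 4.74 to 6.54). Across quartiles of TET1 fold, the share was 18.3% (16.4 to 20.4) in the lowest, 11.9% and 8.86% in the middle, and 6.29% (5.16 to 7.65) in the highest. Regions in the lowest quartile of both folds lacked MBD2 in 154 of 613 cases (25.1%), and regions in the highest quartile of both in 52 of 1216 (4.28%, 3.28 to 5.565). Within the lower 3 quartiles of CTCF fold, the share did not fall steadily as TET1 fold grew, while in the highest it did. In the lowest CTCF quartile it was 25.1%, 22.2% and 28.0% over the lowest 3 quartiles of TET1 fold, with 13 regions in the highest. In the second it was 14.97%, 15.2%, 11.9% and 16.98%, and in the third 12.2%, 9.06%, 11.4% and 15.8%, with overlapping intervals. In the highest CTCF quartile it was 9.90%, 9.01% (6.66 to 12.1), 5.10% and 4.28%, and the intervals of the second and highest TET1 quartiles did not overlap. The 52 regions highest in both, of which 28 had MBD3, were strong in CTCF and TET1 and still without a listed MBD2 region. All 3 lists have their own detection limits, which these shares include.

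**Figure D2:**
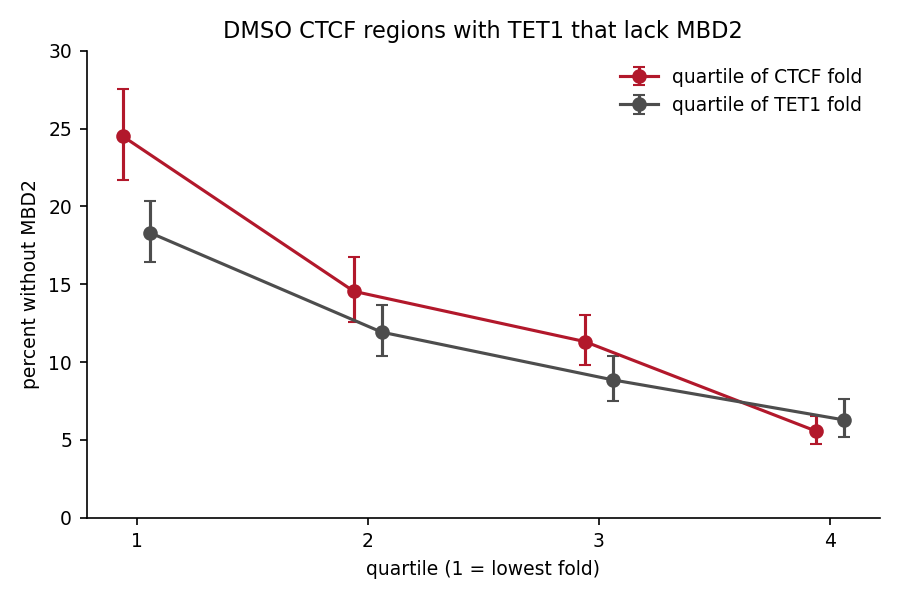
Percent of DMSO CTCF regions with TET1 that lacked MBD2 (vertical) by quartile of CTCF fold over all CTCF regions or of TET1 fold over those with TET1 (horizontal, lowest first), with 95% Wilson bars. The share was 24.5% in the lowest and 5.57% in the highest quartile of CTCF fold.

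The 7 regions named for their DMSO fold from the subset with MBD3 had their nearest MBD2 region 7766 bp or more away. Coordinates are of hg19, and the files pair no region with a gene. The region of highest CTCF fold in this subset lies on chromosome X from 30731182 to 30731417. Its CTCF fold was 7.86, on 41 fragments at the genome-wide background, its TET1 fold 5.84 on 38 fragments and its MBD3 fold 6.99 on 39 fragments. The summits of CTCF and TET1 stood 3 bp apart, and the nearest MBD2 region was 22555 bp away. This region also had the highest TET1 fold of the subset.

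Others of this kind differed in how CTCF and TET1 compared. On chromosome 12 from 45524610 to 45524903, CTCF fold was 7.83 on 64 fragments while TET1 fold was 2.53 on 25, a weak TET1 call with a −log10 q of 2.22. On chromosome 3 from 31608557 to 31608821 the order was the other way, with a CTCF fold of 4.47 on 27 fragments and a TET1 fold of 5.43 on 38, and its nearest MBD2 region lay 434614 bp away. A region on chromosome 15 from 99813228 to 99813462 was high in all 3, with folds of 7.22 for CTCF, 5.44 for TET1 and 6.40 for MBD3 on 59, 57 and 57 fragments.

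The remaining regions of this subset named for their DMSO fold were close to these in fold. On chromosome 16 from 89233950 to 89234206, the folds of CTCF, TET1 and MBD3 were 7.85, 4.15 and 4.57. A region on chromosome 5 from 74345723 to 74346007 had folds of 7.47, 4.95 and 5.19. Another, from 6097834 to 6098081 of chromosome 12, had 6.50, 5.38 and 4.30. Each of these 3 had its nearest MBD2 region at 48705 bp or more.

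Where TET1 was the only partner, CTCF fold was highest on chromosome 3 from 103991969 to 103992290. CTCF fold there was 8.98 on 47 fragments, the largest in the whole set, and TET1 fold was 4.34 on 28 fragments with its summit 6 bp from that of CTCF. The nearest MBD2 region lay 290705 bp away. A region on chromosome 12 from 68552213 to 68552557 followed, with a CTCF fold of 8.60 on 45 fragments and a TET1 fold of 4.04 on 26. On chromosome 5 from 118292436 to 118292732, CTCF fold was 7.42, but TET1 fold was 3.02 on 20 fragments and the summits were 72 bp apart. On chromosome 3 from 158977903 to 158978157, the folds were 7.295 for CTCF and 5.09 for TET1.

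Ranked by TET1, the first region with no other partner lies on chromosome 19 from 38893657 to 38893889. Its TET1 fold was 5.99 on 39 fragments, the largest in the whole set, and its CTCF fold was 5.985 on 31. At chromosome 11, 67396782 to 67396987, and chromosome 16, 1107554 to 1107753, TET1 fold was 5.69 on 37 fragments in both, with CTCF folds of 5.05 and 5.42. On chromosome 1 from 12289884 to 12290111, TET1 fold was 5.53 and CTCF fold 6.17. All 4 had their local CTCF background at the floor, and their nearest MBD2 regions were 104669 bp to 178922 bp away.

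TET1 summits lay close to the CTCF summit at most of these regions. The median distance between the CTCF and TET1 summits was 20 bp (18 to 22) in the 670 regions and 13 bp (13 to 13) with TET1 and MBD2. Summits lay within 50 bp of each other in 548 of 670 (81.8%, 78.7 to 84.5), against 91.0% (90.2 to 91.7) with TET1 and MBD2 and 89.9% over all CTCF regions with TET1. Both subsets gave a median of 20 bp, and the shares within 50 bp were 84.5% with MBD3 and 79.7% without. MBD3 summits stood closer to CTCF than TET1 summits did, at a median of 12 bp (10 to 14), and 267 of 296 (90.2%) were within 50 bp, where 93.5% of all CTCF regions with MBD3 were. Weaker regions rest on fewer fragments, and the part of this in the wider spacing was not tested.

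**Figure D3:**
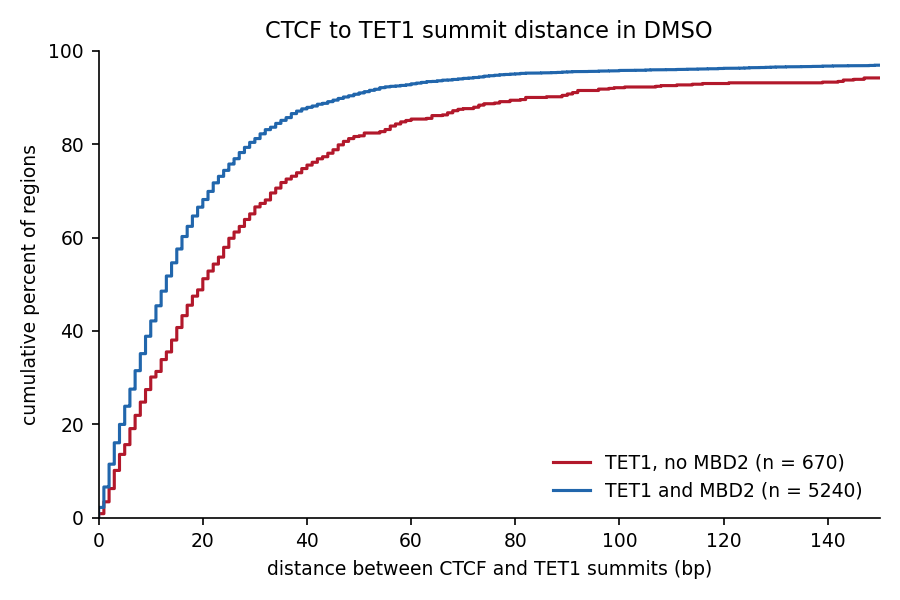
Cumulative percent of regions (vertical) by distance between the CTCF and TET1 summits in bp (horizontal, shown to 150 bp) for DMSO CTCF regions with TET1 and no MBD2 and for those with TET1 and MBD2. At 50 bp the line without MBD2 stands at 81.8% and the line with MBD2 at 91.0%.

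MBD2 was seldom just outside a region of the set. The nearest MBD2 region was a median of 39464 bp away (33477 to 45967). It lay within 1000 bp for 28 of 670 (4.18%, 2.91 to 5.97), of which 17 had TET1 alone, where the share was 2.85% of all CTCF regions without MBD2. CTCF regions with neither TET1 nor MBD2 gave 2.67% (2.26 to 3.15) and a median of 44930 bp. Of the 374 regions without MBD3, 10 (2.67%) had an MBD3 region within 1000 bp, where 1.76% of all CTCF regions without MBD3 had one. At the edge of the rule, the smallest gap to MBD2 among members was 97 bp, and the smallest MBD2 overlap among regions left out for it was 2 bp. The smallest TET1 overlap of a member was 6 bp, only 4 members overlapped TET1 by under 50 bp, and the median overlap was 203 bp. A TET1 region stood 5 bp outside one of the CTCF regions that had neither. Each member had a TET1 region of its own, and 4 of these 670 TET1 regions reached an MBD2 region beyond the CTCF region.

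The regions were close to all CTCF regions in width, and most had 1 summit. Median width was 250 bp (245 to 256), against 252 bp (251 to 253) over all CTCF regions. It was 285 bp (282 to 287) with TET1 and MBD2 and 232 bp (231 to 234) with neither. More than 1 summit was listed for 20 of 670 (2.99%), where 2.3% of all CTCF regions had more than 1. Of these 20, 15 were in the subset with MBD3. The shares were 5.07% with MBD3 and 1.34% without. This was not particular to the set: with TET1 and MBD2 they were 5.45% and 1.88%. Another CTCF region lay within 10000 bp for 168 of 670 (25.1%), close to the 23.5% of all CTCF regions.

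A small part of the set stood in places of raised background. The local background exceeded 3 times the floor at 56 of 670 regions (8.36%, 6.49 to 10.7), where 10.4% of all CTCF regions did. Of the 56, 42 had MBD3 (14.2% of that subset, 10.7 to 18.6) and 14 did not (3.74%, 2.24 to 6.185). With TET1 and MBD2 the shares were 16.3% with MBD3 and 8.33% without. On the contigs outside chromosomes 1 to 22 and X lay 6 members (0.896%), where 1.08% of all CTCF regions lay. At such places a large pileup gives a small fold. On chromosome 6 from 58777627 to 58777974, 2512 fragments gave a CTCF fold of 1.17 over a background of 492.6 times the floor.

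By chromosome, the share of CTCF regions with TET1 that lacked MBD2 ran from 7.02% (3.60 to 13.2) on chromosome 20 to 17.0% (13.0 to 21.98) on chromosome 3. Of the 23 chromosomes, chromosomes 3 and 7 alone had an interval wholly above the share of 11.3% over all regions, and none lay wholly below it. Chromosome 7 had 41 of 261 (15.7%, 11.8 to 20.6). Chromosome 19 had 18 of 227 (7.93%, 5.07 to 12.2). Chromosome 1 held the most members, 67, and also the most CTCF regions with TET1, 634, a share of 10.6% (8.41 to 13.2). The median local background of CTCF regions was 6.43 fragments on chromosome 3 and 7.30 on chromosomes 7 and 19, and its part in these shares was not tested.

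**Figure D4:**
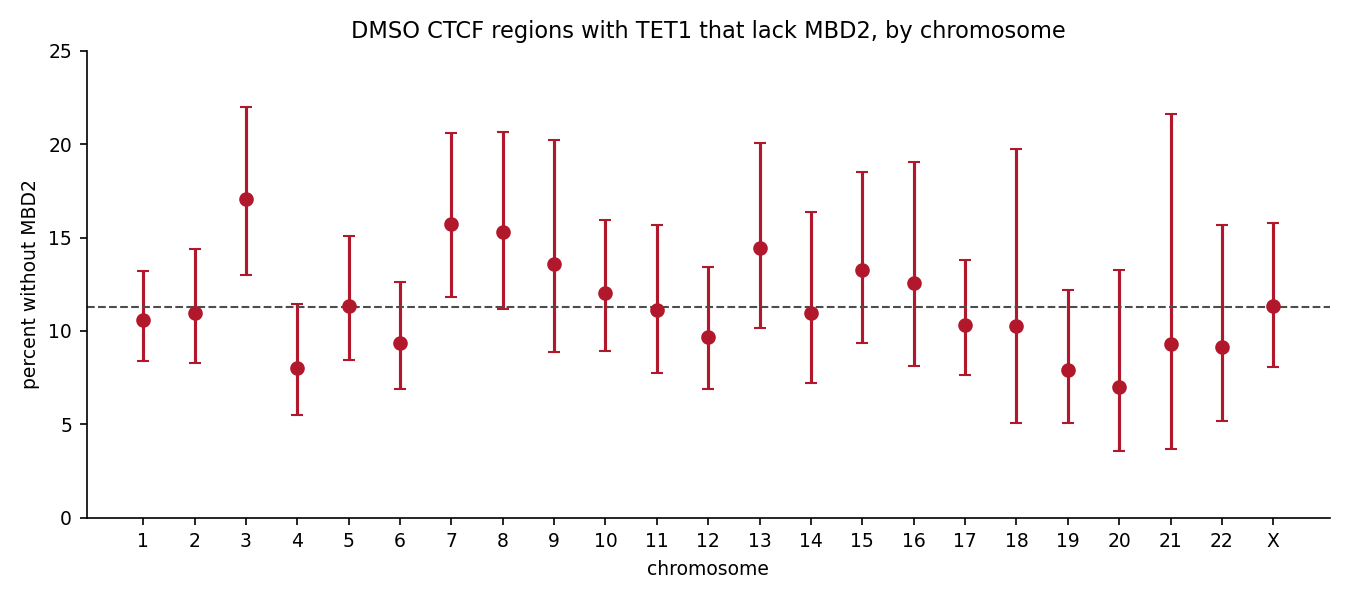
Percent of DMSO CTCF regions with TET1 that lacked MBD2 (vertical) on each of chromosomes 1 to 22 and X (horizontal), with 95% Wilson bars; the dashed line is the 11.3% over all regions. Chromosome 3 stands highest at 17.0% and chromosome 20 lowest at 7.02%.

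The treated lists took no part in the choice of the regions. Under BPK25, TET1 was listed at 6 of the 670 regions (0.896%, 0.411 to 1.94), where 3.84% of all DMSO CTCF regions had a TET1 region under BPK25. At the 5240 regions that had TET1 and MBD2 in DMSO, it was listed at 474 (9.05%, 8.30 to 9.85), and these intervals do not overlap. With MBD3, the share was 1.69% (0.724 to 3.89) at the 296 regions without MBD2 and 11.2% (10.2 to 12.2) at the 4016 regions with it. Without MBD3, it was 1 of 374 (0.267%, 0.0472 to 1.50) where TET1 was the only partner and 25 of 1224 (2.04%, 1.39 to 2.998) where MBD2 was present, and these intervals overlap. Regions with neither TET1 nor MBD2 in DMSO gave 0.757% (0.552 to 1.04), an interval that overlaps that of the 670 regions, and those with MBD2 but no TET1 gave 2.34%. Over all 11530 CTCF regions without TET1 in DMSO the share was 1.65%.

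At ordinary background, the share was lower for members than with TET1 and MBD2 in every quartile of TET1 fold. These quartiles are wide and do not equalise fold. The highest ran from a TET1 fold of 4.135 to 16.95, while members ended at 5.99. CTCF fold, with medians of 4.20 for members and 5.065 with TET1 and MBD2, was not matched, and its part was not tested. The intervals over regions stayed apart in the lowest, second and highest quartiles. With a split by MBD3 as well, the intervals overlapped in each quartile, on few members. MBD3 was listed less often in the set than with TET1 and MBD2, at the 44.2% and 76.6% given above. At no more than 3 times the floor, TET1 under BPK25 was listed at 4 of 614 members (0.651%, 0.254 to 1.66), against 6.95% (6.24 to 7.74) of regions with TET1 and MBD2 and 2.96% of all CTCF regions at that background. In the lowest and second quartile of TET1 fold it was listed at 0 of 216 and 0 of 174 members, with upper Wilson limits of 1.75% and 2.16%. The shares at regions with TET1 and MBD2 were 4.17% (2.98 to 5.79) and 5.25% (4.09 to 6.71). In the third quartile it was 3 of 131 (2.29%, 0.782 to 6.52) for members and 5.475% (4.34 to 6.88) with MBD2, and the intervals overlap. In the highest it was 1 of 93 (1.08%, 0.190 to 5.84) for members and 11.5% (9.91 to 13.4) with MBD2.

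Split by MBD3, the members were few in each quartile and the intervals overlapped in all 4. An overlap on so few members does not show that the classes are alike. Members with MBD3 had the lower share in all 4 quartiles. With MBD3, TET1 under BPK25 was listed at 0 of 79 members in the lowest quartile (0 to 4.64%), against 5.86% (4.11 to 8.29) of regions with TET1, MBD2 and MBD3. In the second it was 0 of 68 (0 to 5.35%) for members and 6.27% (4.79 to 8.18) with MBD2. In the third it was 2 of 61 (3.28%, 0.904 to 11.2) and 7.17% (5.68 to 9.03), and in the highest 1 of 46 (2.17%, 0.385 to 11.3) and 13.2% (11.3 to 15.3). Members without MBD3 had 1 case in all, in the third quartile, at 1 of 70 (1.43%). Regions with TET1 and MBD2 but no MBD3 stood lower in that quartile, at 0.621%. The intervals of these classes overlapped in each quartile. Over all TET1 folds at ordinary background, 3 of 254 members with MBD3 had TET1 under BPK25 (1.18%, 0.4025 to 3.41). The share was 8.78% (7.87 to 9.79) of the 3337 regions with MBD2 and MBD3, and these intervals do not overlap. Without MBD3 it was 1 of 360 (0.278%, 0.0491 to 1.56) for members and 1.515% (0.948 to 2.41) with MBD2, and these overlap.

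The BPK25 list of TET1 had a floor of 20.4% of the DMSO value. It held 777 regions, and the part of depth in these shares was not tested.

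Of the 6 members with TET1 under BPK25, 5 had MBD3 in DMSO. On chromosome 2 from 190007940 to 190008198, TET1 fold was 8.80 on 18 fragments under BPK25 and 3.74 on 24 fragments in DMSO. On chromosome 18 from 31902723 to 31902966 it was 7.83 on 26 fragments under BPK25 and 3.13 on 65 in DMSO, in a place where background was 3.30 times the floor. On chromosome 22 from 23219681 to 23219909 it was 6.64 on 16 fragments under BPK25 and 5.04 on 43 in DMSO. On chromosome 8 from 126243003 to 126243199 it was 5.525 on 14 fragments under BPK25 and 3.70 on 37 in DMSO. Fold moves with the depth of a list, and these pairs do not measure a change. None of these 4 was in another treated list.

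CTCF was listed under BPK25 at 6 of 670 regions (0.896%, 0.411 to 1.94), where 1.27% of all CTCF regions had one, and at 2.94% (2.515 to 3.43) of regions with TET1 and MBD2. Of these 6, 5 lay in raised background, and the other was 1 of the 614 members at ordinary background (0.163%, 0.0288 to 0.917). Over all CTCF regions, 156 of the 222 cases lay in raised background. At ordinary background 48 of 15586 had one (0.308%), a share inside the interval of the members. Only 1 of the 6 members lay on chromosomes 1 to 22 and X with a −log10 q of 5 or more in DMSO. It lies on chromosome X from 61699189 to 61699496, at 43.7 times the floor, with a CTCF fold of 2.35 under BPK25 and 1.52 in DMSO.

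NuRD subunits under BPK25 were listed at few of these regions. MBD2, absent from all of them in DMSO by the rule, was listed under BPK25 at 10 of 670 (1.49%, 0.813 to 2.725), where 1.42% of all CTCF regions had it. With TET1 and MBD2 in DMSO the share was 3.68%. MBD2 at ordinary background was listed at 4 of 614 (0.651%, 0.254 to 1.66), close to the 0.7635% of all CTCF regions at that background. Among the 4 was chromosome 11 from 65267547 to 65267854, with a fold of 5.18 on 18 fragments and a DMSO MBD2 region within 415 bp. MBD3 was listed under BPK25 at 9 of 670 (1.34%, 0.708 to 2.53), where 1.1% of all CTCF regions had it, and 7 of the 9 lay in raised background. Over all CTCF regions with MBD3 under BPK25, 137 of 192 lay in raised background. The MBD2 list under BPK25 had a floor of 49.5% of its DMSO value and the MBD3 list one of 7.92%.

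Under IAA, 10 of 670 regions (1.49%, 0.813 to 2.725) were met by any list, where 1.16% of all CTCF regions were. All 10 had MBD3 in DMSO. This was not particular to the set: of the 155 regions with TET1 and MBD2 that were met, 153 had MBD3. CTCF under IAA was listed at 6 of 296 regions with MBD3 (2.03%, 0.932 to 4.35) and at 0 of 374 with TET1 alone, with an upper Wilson limit of 1.02%. Over the 670 regions this is 0.896%, where 0.952% of all CTCF regions had a CTCF region under IAA. MBD2 under IAA was listed at 7 (1.04%), MBD3 at 2 (0.299%) and TET1 at 3 (0.448%), where 0.631%, 0.442% and 0.459% of all CTCF regions were met. All 6 CTCF cases and all but 1 of the MBD2 cases lay in raised background. Over all CTCF regions, 101 of 166 CTCF cases and 84 of 110 MBD2 cases did, and 41 and 1 lay at ordinary background. For the rest the background was not recovered. The IAA list of CTCF had a lower floor than the DMSO list, and the part of depth was not tested.

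The IAA CTCF regions in the set had low folds on deep pileups. The highest was 3.83 on 53 fragments, on chromosome 7 from 61975612 to 61975958, where CTCF fold in DMSO was 2.53 on 92 fragments. On chromosome 16 from 46404135 to 46404714 it was 1.655 on 291 fragments under IAA and 1.68 on 1080 in DMSO. On chromosome 18 from 18512854 to 18513117 it was 1.62 on 94 fragments under IAA and 1.52 on 404 in DMSO. On chromosome 6 from 58777627 to 58777974 it was 1.37 on 668 fragments under IAA and 1.17 on 2512 in DMSO. Their DMSO background was 8.225, 147.5, 60.97 and 492.6 times the floor.

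Across all 8 treated lists, 26 of 670 regions (3.88%, 2.66 to 5.625) were met by at least 1, where 5.7% of all CTCF regions were. With TET1 and MBD2 the share was 12.6% (11.7 to 13.5). Of the 26, 20 had MBD3 and 6 had TET1 alone, which is 6.76% (4.42 to 10.2) and 1.60% (0.737 to 3.455) of the subsets. In raised background 16 of 56 members were met (28.6%, 18.4 to 41.5), where 20.5% of all CTCF regions there were. At ordinary background 10 of 614 were met (1.63%, 0.887 to 2.97), where 3.79% of all CTCF regions there were. At ordinary background the subsets gave 5 of 254 (1.97%) with MBD3 and 5 of 360 (1.39%) without, with overlapping intervals.

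**Figure D5:**
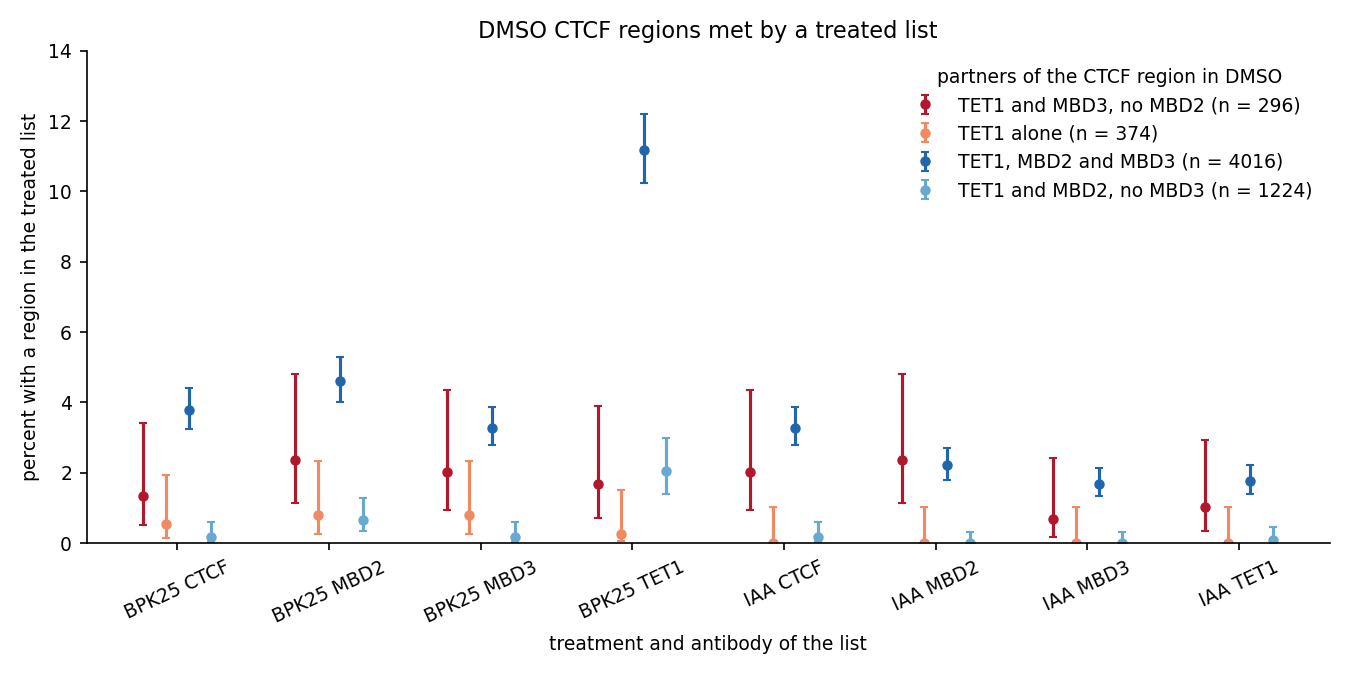
Percent of DMSO CTCF regions with a region in each of the 8 treated lists (vertical), by treatment and antibody of that list (horizontal) and by the partners listed in DMSO, with 95% Wilson bars. For TET1 under BPK25, regions with TET1 and MBD3 but no MBD2 stand at 1.69%, and those with TET1, MBD2 and MBD3 at 11.2%.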

How the data were processed

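ChIP-seq libraries of HEK293T cells were grouped by the treatment and antibody in their labels. Per the submitters' processing notes, reads were handled with Bowtie2 2.3.4 and peaks with MACS2 2.1.2 on hg19, with bedtools 2.25.0, SAMtools 1.9, deepTools 3.5.0 and FastQC 0.11.7 also named. No source used here states the settings of the peak caller. The 12 deposited lists give for each peak a fold enrichment (a linear ratio), the −log10 of its p-value and q-value, an integer score that is 10 times the −log10 q, and the offset of the summit; all are the authors' own values. Library depth is unknown from such lists.

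Rows with identical coordinates were merged into 1 region and took the row with the largest −log10 p. Where several regions of a list met a CTCF region, that of highest fold was used. Pileup and background were solved from fold, read as pileup plus 1 over background plus 1, and from the Poisson tail of the pileup; 53609 of 53743 regions were solved within 0.02% of their −log10 p, and the others had a −log10 p above 150 or, for 11 regions, met no pileup within that limit. The scripts were tested on simulated data. Python 3.11.15, numpy 2.4.6, pandas 2.3.3, SciPy 1.17.1 and matplotlib 3.10.9 were used.

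The set of regions, the classes and the lists were chosen with earlier results of these data known. Regions named in the text have a CTCF −log10 q of 5 or more and lie on chromosomes 1 to 22 or X: in each subset the 4 of highest CTCF fold and the 4 of highest TET1 fold, and up to 4 of highest treated fold for CTCF and TET1 under BPK25 and CTCF under IAA. The region named for MBD2 under BPK25 was chosen after its values were seen. Base composition, motifs and gene starts were not analysed here, since no hg19 genome was used. No source used here says whether the replicates were separate cultures.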

Additional observations from a re-analysis of the deposited data

How the results depend on the processing

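Each of 11 results was recomputed under 7 alternatives, and 54 of the 77 values stayed within the 95% interval of the reported value or, for counts of regions, within 1.5 times. Stricter thresholds moved most of the others. With a −log10 q of 5 or more in every list, 399 regions remained in the rule, 181 with MBD3 and 218 without; median fold was 4.645 for CTCF and 3.64 for TET1, 2.51% had MBD2 within 1 kb and 93.5% had summits within 50 bp. With a CTCF fold of 4 or more, 377 regions were left, 179 with MBD3 and 198 without, with median folds of 4.92 and 3.50; 0.5305% had MBD2 within 1 kb, 92.6% had summits within 50 bp, and the shares with CTCF or MBD2 under BPK25 and with CTCF under IAA were all 0. A fold filter also removes raised background. Without regions over 3 times the floor, the median TET1 fold was 3.19, and the shares were 0.163% for CTCF and 0.651% for MBD2 under BPK25 and 0 for CTCF under IAA. MBD2 within 1 kb became 11.7% with summits within 150 bp as the rule and 2.28% without regions that had MBD2 within 500 bp, as these settings themselves add or remove such regions. The share with TET1 under BPK25 ran from 0.651% to 1.59% over the alternatives. No paired analysis was possible because each list pools replicates 1 to 3, and for the same reason no replicate could be left out.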

Other observations

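Members of the set mostly lay far from one another, and their spacing was not compared with that of as many other CTCF regions. The nearest other member lay a median of 1363457 bp away, 74 of 670 had one within 100000 bp, 16 within 10000 bp and 4 within 1000 bp. Neighbours on chromosome 7, from 61975612 to 61975958 and from 61976321 to 61976646, both had MBD3, at 8.225 and 7.88 times the floor, and both were listed for MBD2 under IAA.

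Most members met by a treated list were met by 1 list, 14 of 26, but a contig region held most of the treated antibodies. Un_gl000226 from 10781 to 11156 was met by 6 of the 8 treated lists, with CTCF folds of 2.46 under BPK25 and 2.11 under IAA, against 1.72 in DMSO at 107 times the floor. Its DMSO partners were TET1 and MBD3, and MBD2, not listed there in DMSO, had a fold of 1.80 on 535 fragments under BPK25.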
